A study of Mus musculus with 26 samples.

Results

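The 39 genes described here encode the machinery that stores transmitter in synaptic vesicles and releases it. They were chosen by symbol from the table of RNA levels, and all 39 were found in it, each with 1 row, among 37450 gene IDs. In this series of 26 samples, mouse embryonic stem (ES) cells were differentiated into spinal motor neurons in culture and profiled for RNA, chromatin and factor binding. The RNA came from days 0, 4, 5 and 6 as ribosome-depleted total RNA, 1 library a day, and only these 4 libraries were used for the levels given here. The day 0 library is ES cells with no agent added. The day 4 library is motor neuron progenitors that received 1 uM retinoic acid (RA) and 0.25 uM SAG, which activates the Hedgehog pathway, on day 2. The day 5 library, which the labels call postmitotic motor neurons, had RA and SAG in the same way and 5 uM DAPT, an inhibitor of gamma-secretase and so of Notch signalling, on day 4. The day 6 library had RA and SAG in the same way and DAPT on days 4 and 5. The labels give days 0 and 4 to the HBG3 line and days 5 and 6 to the iCre line, while another label field names Ainv15 cells for all of them. Nothing in the labels says that day 6 cells were cultured beside day 5 cells.

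At a synapse, a vesicle docks at the active zone and is primed, and the SNARE proteins of the vesicle and of the plasma membrane then zip together to fuse both membranes. Synaptotagmins on the vesicle bind the calcium that enters with an action potential and couple it to fusion, and complexins hold and assist the assembled SNAREs. Vesicles are kept in a pool by synapsins and are refilled by transporters whose identity sets the transmitter. Motor neurons release acetylcholine onto muscle.

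Levels are FPKM, a fragment density per gene length and sequencing depth computed by the authors, so genes can be compared per length within a library. Days were compared by the difference of log2(FPKM + 1), a scale that compresses changes among low genes. Genes whose difference reached 1, that is 2-fold, are called higher or lower, and a gene counts as measured where it reached 1 FPKM in either library. With 1 library per day there is no spread between replicates, so no test was made and no difference below has a replicate check. Read numbers for the libraries are not given in the sources used here, and values well below 1 FPKM can rest on few reads. In bulk RNA, fewer cells of a type and less RNA per cell cannot be told apart.

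By summed FPKM, ES cell markers were highest on day 0, progenitor markers on day 4 and motor neuron markers on day 6. Summed FPKM of 7 ES cell markers was 823, 58.3, 13.4 and 2.88 on days 0, 4, 5 and 6, that of 7 progenitor markers was 5.95, 284, 53.2 and 20.4, and that of 7 motor neuron markers was 1.74, 11.7, 188 and 304. Sox2 alone held 57.6 FPKM of the ES cell sum on day 4. From day 5 to day 6 Isl1, Chat, Slc5a7 and Prph were higher, Prph at 8.16 and 132.1 FPKM. Mnx1 (36.5 and 22), Lhx3 (24.1 and 3.90) and Lhx4 (22.8 and 10.4) were lower, and the median of the motor neuron markers was 22.8 and 13.2 FPKM. Chat, the enzyme that makes acetylcholine, stood at 0.0096, 0.596, 8.02 and 13.2 FPKM. The 8 glial markers summed to 6.33, 10.6, 13.5 and 12.9 FPKM, most of it on days 5 and 6 from Mbp, a myelin gene that also has transcripts outside glia, at 0.666, 2.18, 11.5 and 9.9 FPKM. On day 6 Gfap was listed at 0, Aqp4 stood at 0.0059 and Pdgfra at 1.01 FPKM. The 12 markers of V0, V1 and dorsal interneurons summed to 2.25, 1.54, 4.86 and 2.63. The 7 genes in the table listed for neurons in general summed to 32.4, 24.9, 536 and 1360 FPKM. The 4 genes listed for hormone-storing cells, Chga, Chgb, Scg2 and Scg3, summed to 1.78, 3.05, 25.6 and 63 FPKM. Both sums were larger on days 5 and 6, as was that of the release machinery, and the part of either kind of cell in it was not tested. Hprt, which serves purine salvage in most cells, stood at 0.2996 and 0.311 FPKM in the iCre libraries of days 5 and 6, against 55.4 and 21.8 FPKM in the HBG3 libraries of days 0 and 4. The line and the day therefore cannot be told apart in any comparison of day 5 or 6 with day 0 or 4.

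The machinery was low in ES cells, and its genes reached 1 FPKM on different days. At 1 FPKM or more were 8, 12, 26 and 34 of the 39 genes on days 0, 4, 5 and 6, and at 10 FPKM or more were 1, 1, 6 and 12. The median over the 39 genes was 0.199, 0.733, 1.97 and 2.72 FPKM, and their sum was 35.8, 48.5, 164.7 and 329.6 FPKM. The share of all gene IDs at 1 FPKM or more stayed between 27.1% and 28.1% over the 4 days. First at 1 FPKM were 8 genes on day 0, 5 on day 4, 15 on day 5 and 8 on day 6, while Syt3, Rph3a and Syn2 did not reach it on any of these days. The highest of the 4 values fell on day 6 for 31 genes, on day 5 for 5 and on day 0 for 3 (Nsf, Syt9 and Syngr1). Among all 12618 genes at 1 FPKM or more on any day, 26.5% were highest on day 6. Values were higher on each later day for 23 of the 39, against 15.1% of these 12618 genes. Syt3, Rph3a and Syn2, which that filter would leave out, were counted among the 31, and Rph3a and Syn2 also among the 23.

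**Figure D1:**
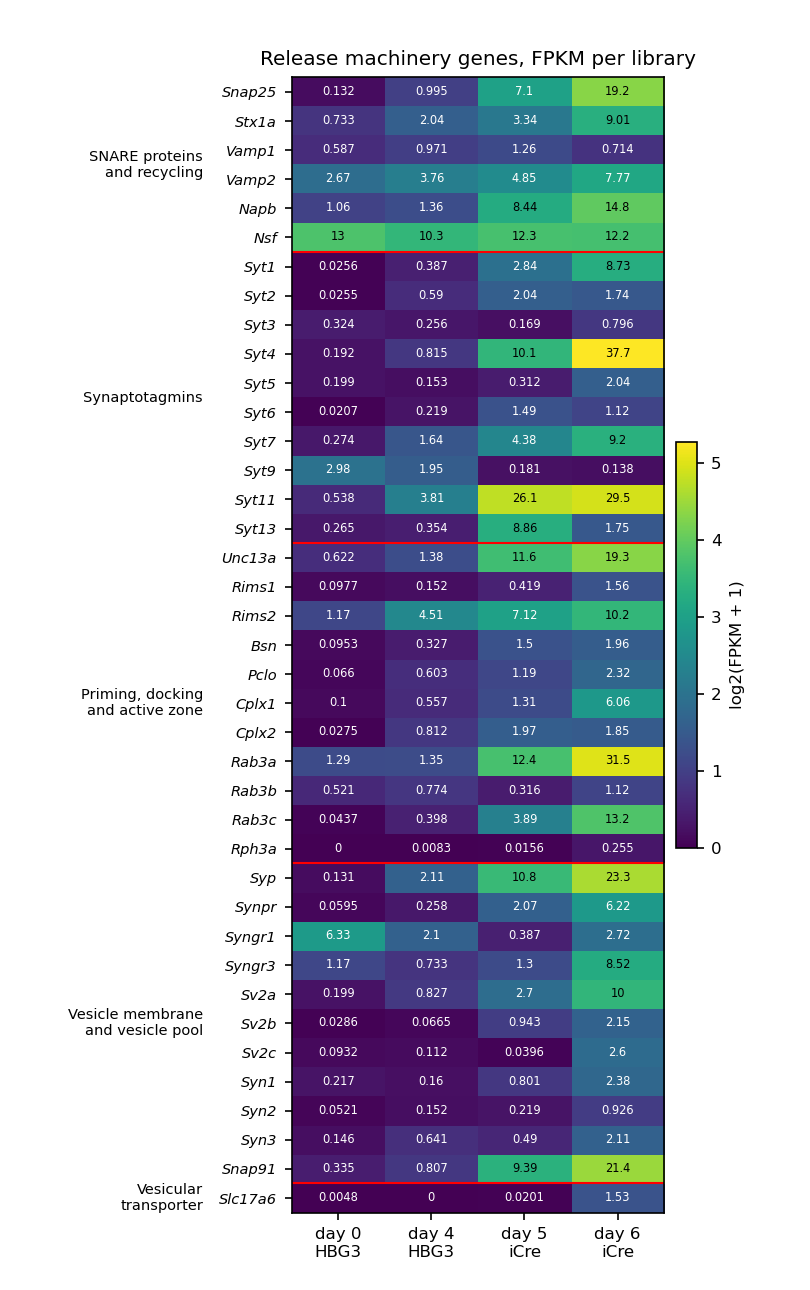
Levels of the 39 genes (rows, grouped by role) in the 4 RNA libraries (columns, with day and line), 1 library per day. Colour gives log2(FPKM + 1) and the printed number is FPKM. Most rows brighten on days 5 and 6, whereas Nsf is even across the days, at 10.3 to 12.98 FPKM, and Syt9 is dark on both of those days.

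The SNARE proteins and their recycling factors were the first role examined, with 6 genes. Snap25, a SNARE of the plasma membrane that contributes a pair of helices to the fusion bundle, stood at 0.132, 0.995, 7.10 and 19.2 FPKM on days 0, 4, 5 and 6. Stx1a, the syntaxin that anchors that bundle in the plasma membrane, stood at 0.733, 2.04, 3.34 and 9.01 FPKM. Both had their lowest value in ES cells and their highest on day 6. Vamp2, the main SNARE of vesicles in forebrain neurons, stood at 2.67, 3.76, 4.85 and 7.77 FPKM, and Vamp1, its relative prominent in spinal cord and brainstem, at 0.587, 0.971, 1.26 and 0.714 FPKM. No step between neighbouring days took either VAMP gene to a 2-fold difference. Napb, the brain form of alpha-SNAP, which helps to take used SNARE bundles apart, stood at 1.06, 1.36, 8.44 and 14.8 FPKM. Nsf, the ATPase that does this in every cell, stood at 12.98, 10.3, 12.3 and 12.2 FPKM, so within this role the gene with a general task varied least.

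Synaptotagmins were represented by 10 genes, whose courses differed from each other. Syt1, the fast calcium sensor of many central synapses, stood at 0.0256, 0.387, 2.84 and 8.73 FPKM on days 0, 4, 5 and 6. Syt2, the fast sensor that predominates at mature mouse neuromuscular junctions, stood at 0.0255, 0.590, 2.04 and 1.74 FPKM. On day 6 the level of Syt1 was thus above that of Syt2. Syt7, a slower sensor of high calcium affinity, stood at 0.274, 1.64, 4.38 and 9.20 FPKM. Syt4 and Syt11, which lack a residue for calcium binding in 1 of their C2 domains, reached the highest levels of this role. Syt4 stood at 0.192, 0.815, 10.1 and 37.7 FPKM, and Syt11 at 0.538, 3.81, 26.1 and 29.5 FPKM. Syt11 was already the leading gene of these 10 on day 4, and Syt4 passed it only on day 6.

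Another set of synaptotagmins did not follow that course. Syt9, a calcium sensor of release in some neurons, stood at 2.98, 1.95, 0.181 and 0.138 FPKM, highest in ES cells. Syt13, a form without the calcium-binding residues, stood at 0.265, 0.354, 8.86 and 1.75 FPKM, and its peak rests on the day 5 library alone. Syt6 stood at 0.0207, 0.219, 1.49 and 1.12 FPKM. These 3 genes and Syt2 had smaller values on day 6 than on day 5, by 2-fold or more on the log2 scale only for Syt13. Syt5 stood at 0.199, 0.153, 0.312 and 2.04 FPKM and Syt3 at 0.324, 0.256, 0.169 and 0.796 FPKM, and both were highest on day 6.

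For docking, priming and the active zone 11 genes were listed. Unc13a encodes Munc13-1, which opens syntaxin and primes vesicles, and stood at 0.622, 1.38, 11.6 and 19.3 FPKM on days 0, 4, 5 and 6. Rims2 encodes a scaffold that ties vesicles to calcium channels and stood at 1.17, 4.51, 7.12 and 10.2 FPKM. Rims1, its relative, stood at 0.0977, 0.152, 0.419 and 1.56 FPKM, well below Rims2 in every library. The giant scaffolds Bsn and Pclo, which help to lay out the active zone, stayed low, Bsn at 0.0953, 0.327, 1.49 and 1.96 FPKM and Pclo at 0.066, 0.603, 1.19 and 2.32 FPKM. Cplx1, the first of the complexins listed, stood at 0.1002, 0.557, 1.31 and 6.06 FPKM and Cplx2 at 0.0275, 0.812, 1.97 and 1.85 FPKM. Cplx2 was thus above Cplx1 on days 4 and 5 and below it on day 6.

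Rab3 proteins are small GTPases on the vesicle that bind RIM scaffolds when loaded with GTP. Rab3a stood at 1.29, 1.35, 12.4 and 31.5 FPKM on days 0, 4, 5 and 6, with almost equal values in ES cells and progenitors. Rab3c stood at 0.0437, 0.398, 3.89 and 13.2 FPKM, and Rab3b at 0.521, 0.774, 0.316 and 1.12 FPKM. Rph3a, which encodes rabphilin, an effector of Rab3, was listed at 0 on day 0 and stood at 0.0083, 0.0156 and 0.255 FPKM on days 4, 5 and 6. Rab3a and Rab3c were therefore high on days 5 and 6 while the gene of this effector stayed below 1 FPKM.

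The vesicle membrane and the vesicle pool were covered by 11 genes. Syp encodes synaptophysin, the abundant marker protein of the vesicle membrane, and stood at 0.131, 2.11, 10.8 and 23.3 FPKM on days 0, 4, 5 and 6. Synpr, its relative synaptoporin, stood at 0.0595, 0.258, 2.07 and 6.22 FPKM. Snap91 encodes AP180, which assembles clathrin to retrieve vesicle membrane, and stood at 0.335, 0.807, 9.39 and 21.4 FPKM. These 3 genes were higher on each later day. Sv2a, an SV2 glycoprotein of the vesicle, stood at 0.199, 0.827, 2.70 and 10.0 FPKM. Sv2b stood at 0.0286, 0.0665, 0.943 and 2.15 FPKM and Sv2c at 0.0932, 0.112, 0.0396 and 2.60 FPKM. SV2 genes thus reached 1 FPKM on different days, Sv2a on day 5 and the other two on day 6.

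Synapsins, which tether vesicles in the reserve pool, were late and low. Syn1 stood at 0.217, 0.160, 0.801 and 2.38 FPKM, Syn2 at 0.0521, 0.152, 0.219 and 0.926 FPKM, and Syn3 at 0.146, 0.641, 0.490 and 2.11 FPKM. In the RefSeq annotation of GRCm38.p6, Syn1 and Syn3 alone were found to overlap a gene at 1 FPKM or more on any day. Overlapping genes whose symbol is not in the table of RNA levels could not be checked. Syn1 overlaps Araf (7.47, 13.4, 16.4 and 29.5 FPKM) and Timp1 (11.1, 1.96, 0.229 and 0.171 FPKM), and Syn3 overlaps Fbxo7 (3.27, 3.60, 1.66 and 1.31 FPKM) and Timp3 (2.44, 4.83, 1.16 and 1.19 FPKM). No use of strand in counting is stated in the sources used here. The levels of Syn1 and Syn3 are therefore less certain than those of members for which no such overlap was found. Synaptogyrins, membrane proteins of the vesicle, differed from each other. Syngr1 stood at 6.33, 2.10, 0.387 and 2.72 FPKM and was highest in ES cells, and Syngr3 stood at 1.17, 0.733, 1.296 and 8.51 FPKM and was highest on day 6.

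Slc17a6 encodes VGLUT2, which fills vesicles with glutamate, and stood at 0.0048 FPKM on day 0, was listed at 0 on day 4, and stood at 0.0201 and 1.53 FPKM on days 5 and 6. Its level was thus near 0 in every library but the last. On the same day Sim1, a factor of the glutamatergic V3 interneurons, was at its highest, with 0.0131, 0.0166, 0.529 and 3.24 FPKM on days 0, 4, 5 and 6. Nkx2-2, the most abundant gene of the same list on that day, was listed at 0 on days 0 and 4 and stood at 8.86 and 5.18 FPKM on days 5 and 6, so it was highest a day earlier. All 4 markers of V3 interneurons and floor plate were at 1 FPKM or more on day 6, and their sum was 0.221, 2.66, 13.2 and 15 FPKM. The part of such cells in the Slc17a6 value was not tested.

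The first step compared progenitors on day 4 with ES cells on day 0, both of the HBG3 line. Syt7, Syt11, Rims2 and Syp were higher on day 4 and Syngr1 was lower, which is 4 and 1 of the 39 genes, 13 of which passed the filter of 1 FPKM. Of all 11482 measured genes, 19.3% were higher and 11.9% were lower. The median difference was 0.28 over the 39 genes and 0.23 over the measured genes, and the value was above 0 for 31 of the 39. The median over all 39 depends on the pseudocount, since most of them were below 1 FPKM on both days. With 0.1 in place of 1 FPKM it was 1.03. Over the 13 measured members alone it was 0.48 with 0.1 and 0.37 with 1, beside 0.27 and 0.23 over all measured genes. With 0.1, 6 members were called higher and 1 lower, beside 26% higher and 15% lower among all measured genes. Syp had a difference of 1.46, with 2.11 FPKM on day 4 and 0.131 on day 0, and Syt11 one of 1.65, with 3.81 FPKM on day 4 and 0.538 on day 0. The median ratio of genes at 1 FPKM or more in both libraries was shifted by 0.24 on the log2 scale. With the libraries rescaled to remove that shift, 14.3% of measured genes were higher and 15% lower, and the share of higher ones among those called was 48.8% in place of 61.9%. After rescaling, Syt11, Rims2 and Syp were still called higher and Syngr1 lower, and Syt7 was no longer called.

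Between day 5 (iCre line) and day 4 (HBG3 line), 15 of the 39 genes were higher and 2 were lower, with 28 genes past the filter. Of all 11339 measured genes, 11.5% were higher and 14.7% lower. The genes higher on day 5 held 2 of 6 SNARE and recycling genes (Snap25 and Napb), 6 of 10 synaptotagmins (Syt1, Syt4, Syt6, Syt7, Syt11 and Syt13), and 3 of 11 priming genes (Unc13a, Rab3a and Rab3c). They also held 4 of 11 genes of the vesicle membrane and pool (Syp, Synpr, Sv2a and Snap91). The lower ones were Syt9 and Syngr1. The median difference was 0.63 over the 39 genes, 1.02 over the 28 of them past the filter and −0.11 over all measured genes. Syt13 had a difference of 2.86, with 8.86 FPKM on day 5 and 0.354 on day 4, and Syt4 one of 2.61, with 10.1 FPKM on day 5 and 0.815 on day 4. Rab3a had a difference of 2.51 and Snap91 one of 2.52. The shift in this step was −0.15, and rescaling added Syt2 to the higher genes, making 16, against a background of 13.6% higher and 11.9% lower.

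Genes below 1 FPKM on the earlier day can be called only as higher, by passing it on the later day, so the same counts were made among genes already at 1 FPKM or more on the earlier day. This count was added after the data were seen. On day 5 against day 4, 6 of 12 such members were higher and 2 were lower, while 7.98% of all such genes were higher and 15.9% lower. On day 6 against day 5, 12 of 26 such members were higher and 1 was lower, while 4.58% of all such genes were higher and 6.58% lower.

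Day 6 against day 5 compared libraries of the iCre line only. Here 17 of the 39 genes were higher and 1 was lower, with 35 past the filter, against 6.57% higher and 6.19% lower among 11164 measured genes. The median difference was 0.85 over the 39 genes, 0.92 over the 35 of them past the filter and −0.07 over all measured genes. Vesicle membrane and pool genes made up 8 of the 17, namely Syp, Synpr, Syngr1, Syngr3, Sv2a, Sv2c, Syn3 and Snap91. Syngr3 had a difference of 2.05, with 8.51 FPKM on day 6 and 1.296 on day 5, and Sv2c one of 1.79, with 2.60 FPKM on day 6 and 0.0396 on day 5. Snap25 and Stx1a of the SNARE genes, Syt1, Syt4 and Syt5 of the synaptotagmins, and Cplx1, Rab3a and Rab3c of the priming genes were also higher, as was Slc17a6. Syt13 was the lower one, with a difference of −1.84 between 1.75 FPKM on day 6 and 8.86 on day 5. Rescaling by the shift of −0.08 left both counts as they were, beside 7.34% higher and 5.39% lower among measured genes.

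Day 5 enters both of these steps, so a value that is low or high in that library alone moves one step up and the other down. Syngr1 had a difference of −1.16 on day 5 against day 4 and of 1.42 on day 6 against day 5. Syt13 had 2.86 in the earlier step and −1.84 in the later. Day 6 against day 4 does not use the day 5 library, and there Syngr1 had a difference of 0.26 and Syt13 one of 1.02.

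**Figure D2:**
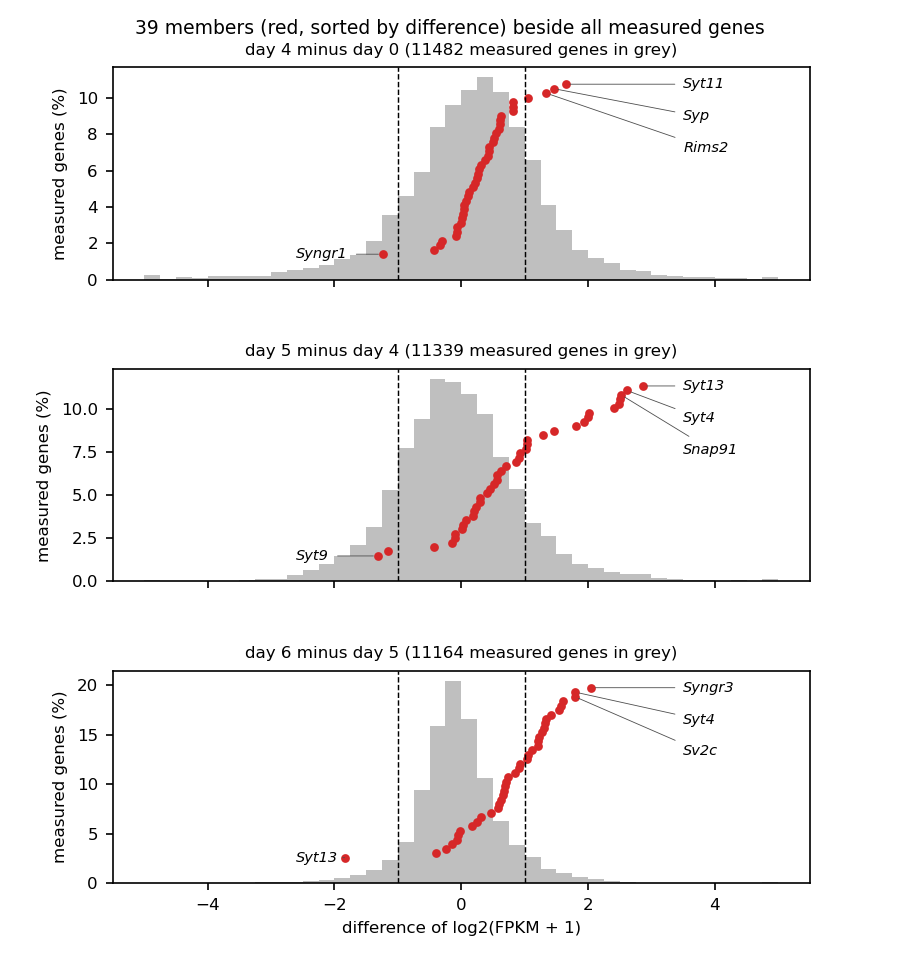
Differences of log2(FPKM + 1) for the 39 genes (red points, sorted by difference) over a histogram of all measured genes (grey, with values beyond the ends gathered in the last bins), 1 panel per step, the later day minus the earlier. The red points include members below 1 FPKM on both days of a step, whereas the grey genes do not. Dashed lines mark 2-fold. The red points follow the grey mass on day 4 minus day 0 and lie mostly to its right in both later steps, with Syt9 and Syngr1 on the left on day 5 minus day 4 and Syt13 on day 6 minus day 5.

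Over the whole course after the progenitor stage, day 6 (iCre line) against day 4 (HBG3 line), 26 of the 39 genes were higher and 1 was lower, Syt9. The background was 17.9% higher and 21.9% lower among 11697 measured genes. The median difference was 1.40 over the 39 genes, 1.56 over the 35 of them past the filter and −0.18 over all measured genes. Rims1, Bsn, Pclo, Sv2b and Syn1, which were not called in any single step, were called higher over this longer interval, with differences of 1.15, 1.16, 1.05, 1.56 and 1.54. Against ES cells on day 0, 31 genes were higher on day 6 and 1 was lower, again Syt9, beside 26.1% higher and 23.7% lower among 12073 measured genes. The 7 members not called in this last comparison were Vamp1, Nsf, Syt3, Rab3b, Rph3a, Syngr1 and Syn2.

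The make-up of each family was read within a library, where a share does not depend on how libraries are scaled. Of the summed FPKM of the 10 synaptotagmins, Syt9 held 61.5%, 19.1%, 0.321% and 0.149% on days 0, 4, 5 and 6. Syt11 held 11.1%, 37.5%, 46.3% and 31.9%, and Syt4 held 3.95%, 8.01%, 17.8% and 40.6%. Among these 10 the leading gene was thus Syt9 in ES cells, Syt11 on days 4 and 5, and Syt4 on day 6. Syt14, a synaptotagmin outside the 10, stood at 3.16, 3.54, 5.32 and 5.18 FPKM. In ES cells it was above the 2.98 FPKM of Syt9. Syt1 and Syt2, the fast sensors, held 9.42% and 1.88% on day 6. Among synaptogyrins, Syngr3 held 15.6%, 25.9%, 77% and 75.8%, so the leading gene differed between days 4 and 5. Cplx1 held 78.5%, 40.7%, 40.1% and 76.6% of the complexins, of which the day 0 share divides a sum of only 0.128 FPKM.

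Among the listed Rab3, RIM, VAMP and SV2 genes, the same gene led its family in all 4 libraries. Rab3a held 69.6%, 53.5%, 74.6% and 68.8% of the Rab3 genes, and beside it Rab3b held 28.1%, 30.7%, 1.91% and 2.45% while Rab3c held 2.36%, 15.8%, 23.5% and 28.7%. Rims2 held between 86.7% and 96.7% of the sum of Rims1 and Rims2, and Vamp2 between 79.3% and 91.6% of that of Vamp1 and Vamp2. Outside the 39, Vamp3 was above Vamp2 in all 4 libraries. Rims3, also outside, was at 1.935 FPKM on day 0, above the 1.17 FPKM of Rims2. Sv2a held between 62.1% and 82.2% of the SV2 genes. Among the synapsins, Syn1 held 52.3%, 16.8%, 53% and 43.9% and Syn3 held 35.2%, 67.3%, 32.5% and 39%, so Syn3 led on day 4 and Syn1 in the other libraries, at sums of 0.416 to 5.41 FPKM. The leading gene of the pair Bsn and Pclo differed from library to library at sums of 0.161 to 4.28 FPKM.

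**Figure D3:**
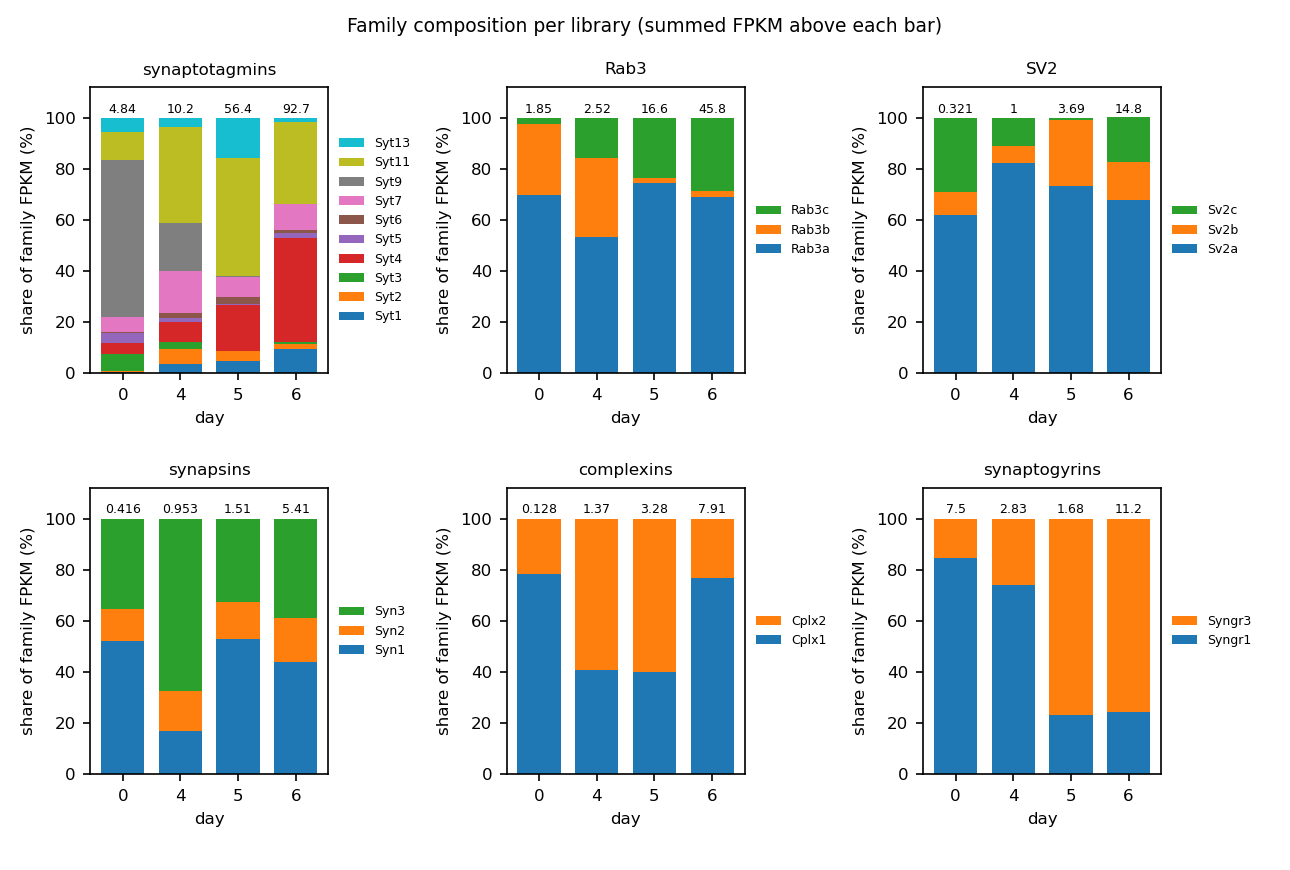
Share of each family's summed FPKM held by each gene (stacked bars, percent) in the 4 RNA libraries, with the summed FPKM above each bar. Syt9 fills 61.5% of the synaptotagmin bar on day 0 and is not visible on days 5 and 6, where Syt11 and Syt4 fill most of it, and Syngr3 takes over the synaptogyrin bar on day 5.

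Many of these proteins have a relative that serves membrane traffic in most cells. The pairs below were chosen after the values were seen. Snap25 stood at 0.0106, 0.0806, 1.35 and 7.33 times the level of Snap23, its relative at the plasma membrane, on days 0, 4, 5 and 6. Snap23 itself was at 12.4, 12.3, 5.26 and 2.62 FPKM, so both genes of the pair contributed to this ratio. Syp stood at 0.0137, 0.181, 2 and 5.14 times Sypl, its more widely expressed relative, and Napb at 0.125, 0.0677, 0.634 and 1.35 times Napa. Syngr3 stood at 0.12, 0.0513, 0.46 and 13.4 times Syngr2, whose level was 9.77, 14.3, 2.82 and 0.637 FPKM. In these 4 pairs the broadly expressed gene was the higher one on days 0 and 4 and the neuronal gene on day 6. Vamp2 stood at 0.158, 0.096, 0.247 and 0.817 times Vamp3, and here the broadly expressed gene was still the higher one on day 6.

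Stx1a stood at 0.0615, 2.48, 6.96 and 13.2 times Stx3, and this ratio passed 1 already on day 4, with Stx3 at 0.821 FPKM on day 4, against 11.9 on day 0. Against Stx4a, Stx1a stood at 0.347, 1.16, 2.7 and 15.5 times. Rab3a and Rab3d differed from the other pairs, since both were high on days 5 and 6 and their ratio was 1.45, 2.3, 3.06 and 5.64. Rab3d was at 0.889, 0.586, 4.04 and 5.59 FPKM. Other broadly expressed SNARE genes were left out of the pairs. Of these, Snap29 (3.22, 3.11, 5.68 and 6.89 FPKM), Vamp4 (3.19, 6.99, 7.15 and 7.77) and Stx2 (1.41, 3.00, 5.14 and 6.665) were also higher on day 6 than on day 4. Vamp8 (2.28, 2.69, 1.17 and 0.541) was lower.

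**Figure D4:**
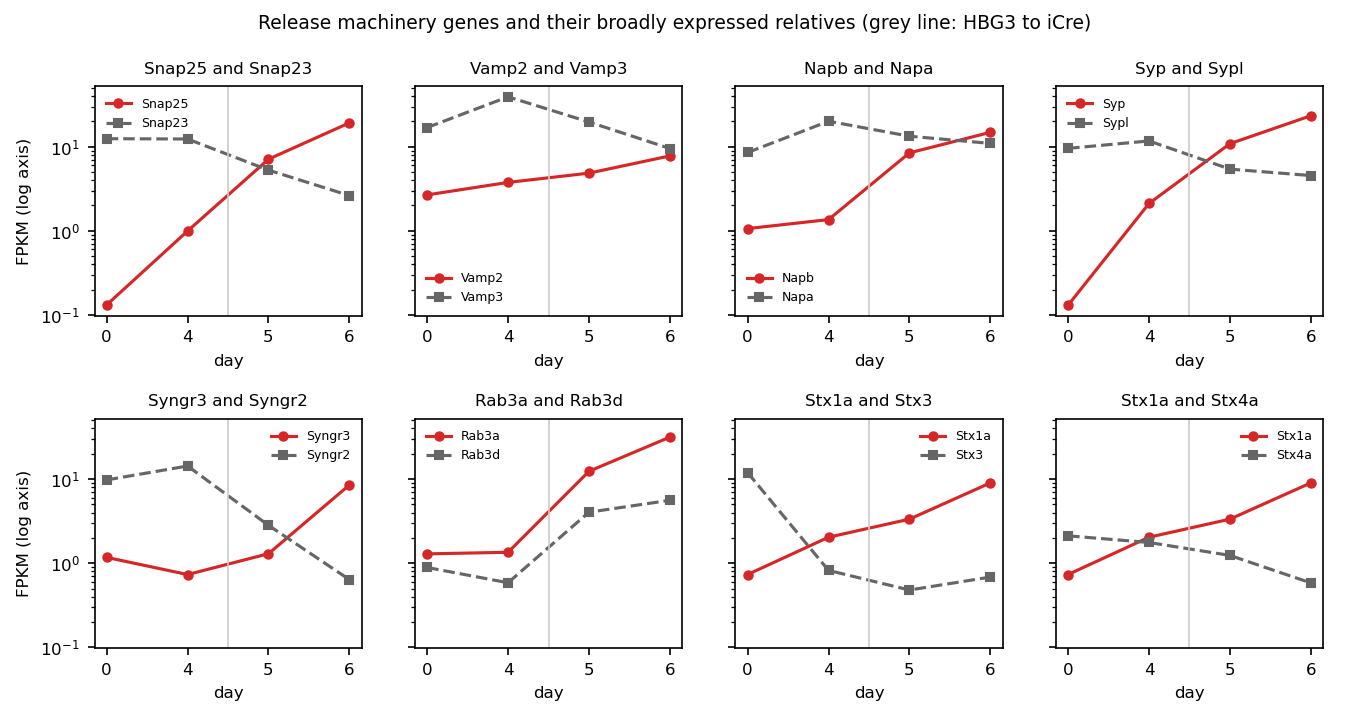
FPKM (log axis) of release machinery genes (red circles) and broadly expressed relatives (grey squares) on days 0, 4, 5 and 6, drawn at equal distances, with a grey line where the label changes from HBG3 to iCre. The lines cross in the panels of Snap25, Napb, Syp, Syngr3 and Stx1a and come close for Vamp2. Those of Rab3a and Rab3d run upward together after day 4, while Rab3d is lower on day 4 than on day 0.

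The rest of the presynaptic pathway was read from lists of other genes over the same 3 steps, day 4 against day 0, day 5 against day 4 and day 6 against day 5. Beside the counts of each list stand the shares of all measured genes, 19.3%, 11.5% and 6.57% higher and 11.9%, 14.7% and 6.19% lower. Of 18 SNARE partners and priming genes, 7, 10 and 14 were measured, of which 3, 3 and 3 were higher and 0, 1 and 0 lower. Cadps, which primes dense-core vesicles, stood at 0.0375, 1.67, 11.8 and 27.8 FPKM and was higher in all 3 steps. Doc2a, a calcium-binding protein of release, stood at 1.5, 10.2, 1.33 and 3.68 FPKM, highest on day 4. Unc13b, the relative of Unc13a, had the highest day 6 level of this list and stood at 7.175, 4.447, 20.45 and 28.55 FPKM. Unc13a was lower in every library, at 0.622, 1.38, 11.6 and 19.3 FPKM. Of 12 active zone scaffolds, 5, 9 and 11 were measured, of which 0, 6 and 4 were higher and 1, 0 and 0 lower. Cask, with the highest day 6 level among them, stood at 5.71, 8.39, 25.2 and 27.7 FPKM, and Ppfia2, a liprin, at 0.0025, 0.0409, 1.14 and 6.21 FPKM. Lin7a stood at 0.0033, 0.570, 6.73 and 4.89 FPKM, and Ppfia4, the gene lower on day 4, at 2.51, 0.179, 0.339 and 1.65 FPKM.

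Of 11 endocytosis genes, 10 were measured in each step, of which 2, 4 and 3 were higher and 2, 0 and 0 lower, so the day 4 counts were near the shares of all measured genes. Picalm, a broadly expressed relative of Snap91, stood at 32.5, 24.9, 47.4 and 46.5 FPKM, with no step of 2-fold. Dnajc6, the neuronal auxilin that strips clathrin coats, stood at 7.50, 0.178, 1.73 and 11.6 FPKM, low on day 4 between high values in ES cells and on day 6. Dnm3, a dynamin, stood at 0.0583, 0.147, 2.76 and 10.3 FPKM. Of 12 other vesicle proteins, 7, 11 and 11 were measured, of which 1, 4 and 2 were higher and 0 lower in each step. Sncg, gamma-synuclein, stood at 0.472, 2.39, 90.1 and 415.2 FPKM, above any of the 39 members on days 5 and 6. Of the 15 broadly expressed relatives in the table, 14 were measured in each step, of which 2, 1 and 0 were higher and 1, 2 and 1 lower. Rescaling took the counts of higher relatives to 0, 1 and 0 and of lower ones to 1, 1 and 1.

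Among vesicular transporters, Slc18a2, which loads monoamines, stood at 0.012, 0.314, 10.2 and 22.4 FPKM, above Slc17a6 in every library. Slc17a7 and Slc17a8, the other vesicular glutamate transporters, were at most 0.324 and 0.498 FPKM in any library, and Slc32a1, which loads GABA and glycine, was at most 0.0245 FPKM. Slc18a3, the acetylcholine transporter, was also listed but did not have a single row of its own in the table of RNA levels. It was therefore not analysed here.

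Promoter windows were searched for short motifs to describe what the members share in sequence. RefSeq windows of GRCm38.p6, from 250 bases before to 50 bases after a start, matched 30 of the 39 genes with 43 windows, and 32851 windows of all genes served for comparison. The 9 members without a window, Snap25, Vamp2, Syt4, Syt5, Syt7, Syt13, Rims2, Syngr3 and Syn3, were not searched. Each motif was searched on both strands. The GC box GGGCGG was in 62.8% of member windows and 35.7% of all windows, beside a median GC content of 61.3% and 52.7%. The proneural E-box forms CAGCTG and CAGATG were in 27.9% and 11.6% of member windows and in 16.3% and 17.2% of all windows. The TATA box TATAAA was in 6.98% of member windows and 13.6% of all windows. The Onecut cores ATCGAT and ATCAAT were in 2.33% and 0% of member windows and in 0.925% and 7.54% of all windows, and the LIM-homeodomain core TAATTA was in 4.65% and 5.29%. The cAMP response element TGACGTCA was in 1 member window, that of Syn1, and in 1.79% of all windows.

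RE1 is the element bound by REST, a repressor known for keeping neuronal genes off in other cells. Its left part AGCACC and its right part GGACAG were each common, in 18.6% and 32.6% of member windows and in 16.2% and 22.2% of all windows. Both parts with 2 letters between them and at most 1 mismatch in all were in 4 of 43 member windows (9.3%) and in 116 of all windows (0.353%). This search was chosen after the data were seen. With at most 2 mismatches the shares were 11.6% and 4.46%. Among windows with a GC content of 51.7% to 67.3%, the quartiles of the member windows, 2 of 22 member windows (9.09%) and 61 of 13599 windows (0.449%) had a match with at most 1 mismatch. The 4 matches are printed because this search gave the lowest share of all windows among the motifs searched. The match is in capitals, the sequence runs 5′ to 3′ on the strand of the gene, and it stops before the start for 3 genes, while for Slc17a6 the last 30 bases of the window are shown.
Syt2 (GRCm38.p6, chr1:134646362-134646611, plus strand): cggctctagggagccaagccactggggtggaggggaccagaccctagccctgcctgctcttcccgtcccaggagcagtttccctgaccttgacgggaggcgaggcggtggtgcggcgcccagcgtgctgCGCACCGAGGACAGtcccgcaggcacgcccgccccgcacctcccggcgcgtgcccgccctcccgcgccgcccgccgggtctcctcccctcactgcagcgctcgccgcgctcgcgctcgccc
Rph3a (GRCm38.p6, chr5:121009539-121009788, minus strand): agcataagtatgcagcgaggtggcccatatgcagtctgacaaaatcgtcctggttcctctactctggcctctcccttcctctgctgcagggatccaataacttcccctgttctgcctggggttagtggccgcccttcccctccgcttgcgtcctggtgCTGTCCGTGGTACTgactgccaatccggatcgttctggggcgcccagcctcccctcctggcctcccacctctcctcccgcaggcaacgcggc
Slc17a6 (GRCm38.p6, chr7:51621850-51621879, plus strand): ttccttagcttcctCTGTCCGTGGTCCTga
Syn1 (GRCm38.p6, chrX:20920919-20921168, minus strand): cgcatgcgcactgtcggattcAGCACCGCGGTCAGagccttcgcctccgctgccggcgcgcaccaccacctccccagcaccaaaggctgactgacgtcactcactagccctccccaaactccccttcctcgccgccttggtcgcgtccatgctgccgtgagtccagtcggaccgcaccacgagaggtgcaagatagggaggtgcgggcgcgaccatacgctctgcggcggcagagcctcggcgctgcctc

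The match read forward in the windows of Syt2 and Syn1 and on the opposite strand in those of Rph3a and Slc17a6. Its first base lay at −121, −92 and −229 from the start for Syt2, Rph3a and Syn1, and at 34 bases after it for Slc17a6, inside the transcribed part. On day 6 these 4 genes stood between 0.255 and 2.38 FPKM with a median of 1.64, and the other 26 genes with a window stood between 0.138 and 31.5 FPKM with a median of 4.39. On day 0 the medians were 0.0151 and 0.165 FPKM. The ranges of both sets overlap on each of these days.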

How the data were processed

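RNA levels are FPKM as deposited by the authors. Build mm9 and the tools STAR, MACS, HOMER 4.7.2 and Bowtie 0.12.7 are listed in the submitters' processing notes without their roles, and which of them gave the FPKM was not given in the sources used here. RNA was ribosome-depleted total RNA per the labels' protocols, which also holds unspliced transcripts, and how these were counted is not given. Genes were compared as differences of log2(FPKM + 1) with 1 FPKM or more in either library and a difference of 1 as the threshold. This used Python 3.11.15 with pandas 2.3.3, numpy 2.4.6 and matplotlib 3.10.9, and the counting was tested on simulated data. The members and lists were chosen with earlier results of these data known. All 39 members are named. Of each other list, the gene with the highest day 6 level and those that differed most in each step were eligible to be named. Relatives of members were also named beside the families and the pairs. Alternatives were another pseudocount, other filters, and rescaling to a common median ratio or upper quartile. Peak and event lists are in mm9, for which no gene starts were at hand, and were not used here. Protein sequences were not used here. 1 gene of the lists is not reported here and was left out of their counts.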

Additional observations from a re-analysis of the deposited data

How the results depend on the processing

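No paired analysis was possible because there was 1 RNA library per day, and for the same reason no library could be left out of a comparison. Of the member differences (39 genes in 5 comparisons), 191 stayed on the same side of the threshold with rescaling to a common median ratio, 3 became called and 1 was no longer called, with the same numbers for the upper quartile. With a pseudocount of 0.1 FPKM, 178 stayed and 17 became called, and the median over the 39 genes was 1.03 in place of 0.28 on day 4 against day 0, 1.18 in place of 0.63 on day 5 against day 4, 1.41 in place of 0.85 on day 6 against day 5, 2.72 in place of 1.40 on day 6 against day 4 and 3.68 in place of 1.62 on day 6 against day 0. Over the measured members alone, the medians of these comparisons were 0.48, 1.77, 1.34, 3.08 and 3.87 in place of 0.37, 1.02, 0.92, 1.56 and 1.72. Over all measured genes the median moved by 0.04 or less. In the same order, their share called higher was 26%, 15.7%, 10.1%, 21.7% and 30.7% in place of 19.3%, 11.5%, 6.57%, 17.9% and 26.1%. Their share called lower was 15%, 20.2%, 9.65%, 27.5% and 27.9% in place of 11.9%, 14.7%, 6.19%, 21.9% and 23.7%. Members called higher were 6, 19, 22, 31 and 31 in place of 4, 15, 17, 26 and 31. No member difference changed direction while called. With 5 FPKM or more in either library, fewer genes entered: 0 members were higher on day 4 against day 0, 9 higher and 0 lower on day 5 against day 4, 17 higher and 0 lower on day 6 against day 4, and 18 higher and 0 lower on day 6 against day 0. The share of all genes called at this filter was not computed, so these counts cannot be set against all genes. The number lower on day 6 against day 0 was 2 with a pseudocount of 0.1 FPKM, beside 27.9% of measured genes, and 2 with the upper quartile. Among genes at 1 FPKM or more in the earlier library, an alternative added after seeing the data, 1 of 8 members was higher and 1 lower on day 4 against day 0. The share of all genes was not computed there. On day 5 against day 4, 6 of 12 were higher, beside 7.98% of all such genes. At 0.5 FPKM or more were 13 members on day 0 and 24 on day 4. At 5 FPKM or more were 2, 1, 11 and 19 members on days 0, 4, 5 and 6. Of the 36 counts over other lists, 34 stayed within 1.5 times with rescaling and 25 with the pseudocount of 0.1 FPKM. Counts of peaks near member starts, within 1 kb or 5 kb, were not run, since no gene starts in mm9 were at hand. The 18 family shares checked did not depend on symbols with more than 1 row.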
